A study of Mus musculus with 4 samples.

Results

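Heat shock and chaperonin genes encode the machinery that folds new and damaged proteins in the cytosol. The set described here holds 39 genes, taken by name from a list chosen with earlier results of these data known. It covers heat shock transcription factors, HSP70 and HSP110 ATPases, J-domain proteins and HSP70 exchange factors. HSP90 and its co-chaperones, a small heat shock protein and the subunits of the chaperonin CCT are also in it. All 39 were found among the 55487 gene IDs of the count table, and all 39 passed the filter on low counts that left 19194 genes for testing. The set was called cytosolic, but Hspd1 and Hspe1 encode the chaperonin of the mitochondrial matrix and its lid and are described separately.

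The RNA came from ILC2s (group 2 innate lymphoid cells), tissue-resident lymphocytes that secrete type 2 cytokines, which had been isolated by sorting from colons of mice. Both groups were kept in culture with IL-33 and IL-25, which activate ILC2s, and with IL-7 and IL-2, which sustain them. In the FK866 group (n = 2 libraries) they were exposed for 16 h to FK866, an inhibitor of NAMPT, the enzyme that salvages nicotinamide into NAD+, and the control group (n = 2 libraries) was not. The strain, sex and age of the mice, the dose of FK866, any vehicle in the controls and the sorting gate are not given in the labels.

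Chaperones work in relays. J-domain proteins deliver unfolded clients to HSP70 and stimulate its ATPase, nucleotide exchange factors release them, and the adaptor STIP1 passes some of them on to HSP90, which completes the folding of kinases and receptors. The ring-shaped chaperonin CCT encloses newly made actin and tubulin. Many of these genes carry heat shock elements, inverted repeats of the bases GAA, which are bound by the transcription factor HSF1 when unfolded proteins build up. Lymphocytes raise much of this machinery when they are activated and start to grow.

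Heat shock elements were looked for in the RefSeq promoter windows (GRCm38.p6, 250 bases before to 50 bases after a start site), as the DNA sequence through which HSF1 and HSF2 act. The motifs GAANNTTC and TTCNNGAA stand for 2 adjoining units, and GAANNTTCNNGAA and TTCNNGAANNTTC for 3. Each 2-unit motif reads the same on both strands, the 3-unit motifs are each other's reverse complement, and each 3-unit match contains 2-unit matches that overlap. Windows were found for 32 members; Hsf1, Hspa8, Hsp90aa1, Hsp90ab1, Dnajc2, St13 and Cct4 had no entry. A 2-unit motif stood in a window of 15 of the 32 genes, against 17% of all 27025 genes in that table, and a 3-unit motif in 5 of the 32, against 0.662% of all genes. The 5 were Hspe1, Hspd1, Chordc1, Hsph1 and Dnajb6. The sequences below show the element shared by the divergently transcribed genes Hspe1 and Hspd1, the element at the start of Chordc1, a 2-unit match of Dnaja1, and one each of the near-identical stress-inducible genes Hspa1a and Hspa1b. Capitals mark the 2-unit matches, adjoining or overlapping ones run together, and positions count from the start site.
Hspe1, chr1:55088048-55088147, plus strand, -100 to -1: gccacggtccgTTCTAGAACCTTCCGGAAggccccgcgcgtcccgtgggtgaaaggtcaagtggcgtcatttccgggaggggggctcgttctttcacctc
Chordc1, chr9:18292237-18292286, plus strand, -30 to +20: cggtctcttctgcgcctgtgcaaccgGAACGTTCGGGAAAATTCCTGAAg
Dnaja1, chr4:40722318-40722377, plus strand, -150 to -91: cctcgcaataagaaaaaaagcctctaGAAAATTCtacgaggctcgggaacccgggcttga
Hspa1a, chr17:34972227-34972286, minus strand, -130 to -71: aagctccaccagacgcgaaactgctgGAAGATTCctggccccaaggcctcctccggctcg
Hspa1b, chr17:34959309-34959368, minus strand, -130 to -71: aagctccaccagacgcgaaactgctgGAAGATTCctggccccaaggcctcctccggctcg
The Hspe1 and Hspd1 windows hold the same genomic element, which begins 89 bases before the start of Hspe1. The Hspa1a and Hspa1b stretches were identical at all 60 bases, and their windows at 247 of the 250 bases before the start. A match describes the letters of the window only.

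Library totals ranged from 27617750 to 37841233 counts. FK866 replicate 2 had the most gene IDs at 10 or more counts (22461), while FK866 replicate 1 had 17152 and the controls 17563 and 18667. The 13 ILC2 markers, among them Gata3, Rora and Il1rl1, summed to 4980.7 and 4284.7 CPM (counts scaled to a common library total) in FK866 libraries and 4881.1 and 4612.3 CPM in control libraries. Within these sums Rora rose (log2 1.70), while Nmur1 (-1.18), Arg1 (-1.33) and Il13 (-1.49) fell, and the other 9 markers were not called (edgeR). Of the genes typical of ILC3s, Il22 was at 214.0 and 75 CPM in FK866 libraries and 264.6 and 146.7 CPM in controls. Il23r rose, at 6.08 and 3.62 CPM in FK866 libraries and 1.05 and 1.29 CPM in controls (log2 2.05, edgeR adjusted p = 0.0172), and Il17a was at most 1.93 CPM. The 6 T cell markers summed to between 56.3 and 66.5 CPM in every library, most of it Lat, with Cd3e at 1.32 to 2.15 CPM. The 5 stromal and endothelial markers summed to 227.9 and 190.2 CPM in FK866 libraries and 182.4 and 144.1 CPM in controls, most of it Pecam1. The B cell, NK cell, myeloid, mast cell and epithelial lists each summed to at most 55.4 CPM in any library. Most of the epithelial sum was Epcam, at 25.1 and 36.9 CPM in FK866 libraries and 41.3 and 54.1 CPM in controls, while Krt8 was at 0 in all libraries. Most of the B cell sum was Cd79b, at 18.2 and 23.5 CPM in FK866 libraries and 31.3 and 34.2 CPM in controls. The part of all these markers in the results below was not tested.

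FK866 changed 13 of the 39 members, 11 downward and 2 upward (edgeR quasi-likelihood test, two-sided, Benjamini-Hochberg adjusted p under 0.05 over all tested genes). Among all tested genes 13.2% were called in either direction, 7.89% lower and 5.31% higher. Abundant genes are called more often. Of the 31 members whose log2 CPM averaged 5 or more, 10 fell and 0 rose, while 16.0% of all such genes fell and 26.9% were called in either direction. An unadjusted p under 0.05 was found for 18 of these 31, against 47.9% of all such genes, and for 22 of the 39 members, against 28.0% of all tested genes. DESeq2 called 15 of the 39 members lower and 3 higher, against 9.91% and 7.76% of all tested genes. The falls were in Hspa8, Hspa4, Dnaja1, Bag2, Hspbp1, Hsp90aa1, Stip1, Cdc37, Chordc1, Hspe1 and Tcp1, and the rises in Hsf2 and Hspa4l. The median log2 fold change, FK866 over control, was -0.27 for the members and 0.03 for all tested genes. Both FK866 libraries lay below both controls for 21 members and above both for 5, against 29.3% and 28.4% of all tested genes. At a mean log2 CPM of 5 or more, the median was -0.35 for the 31 members and -0.06 for all 5667 genes. Of these 31, both FK866 libraries lay below both controls for 19 and above both for 2. The numbers for the 5667 genes were 2278 and 1780. In sum the 39 genes had 21978.5 and 19856.3 CPM in FK866 libraries, against 26781.6 and 26120.4 CPM in controls.

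**Figure D1:**
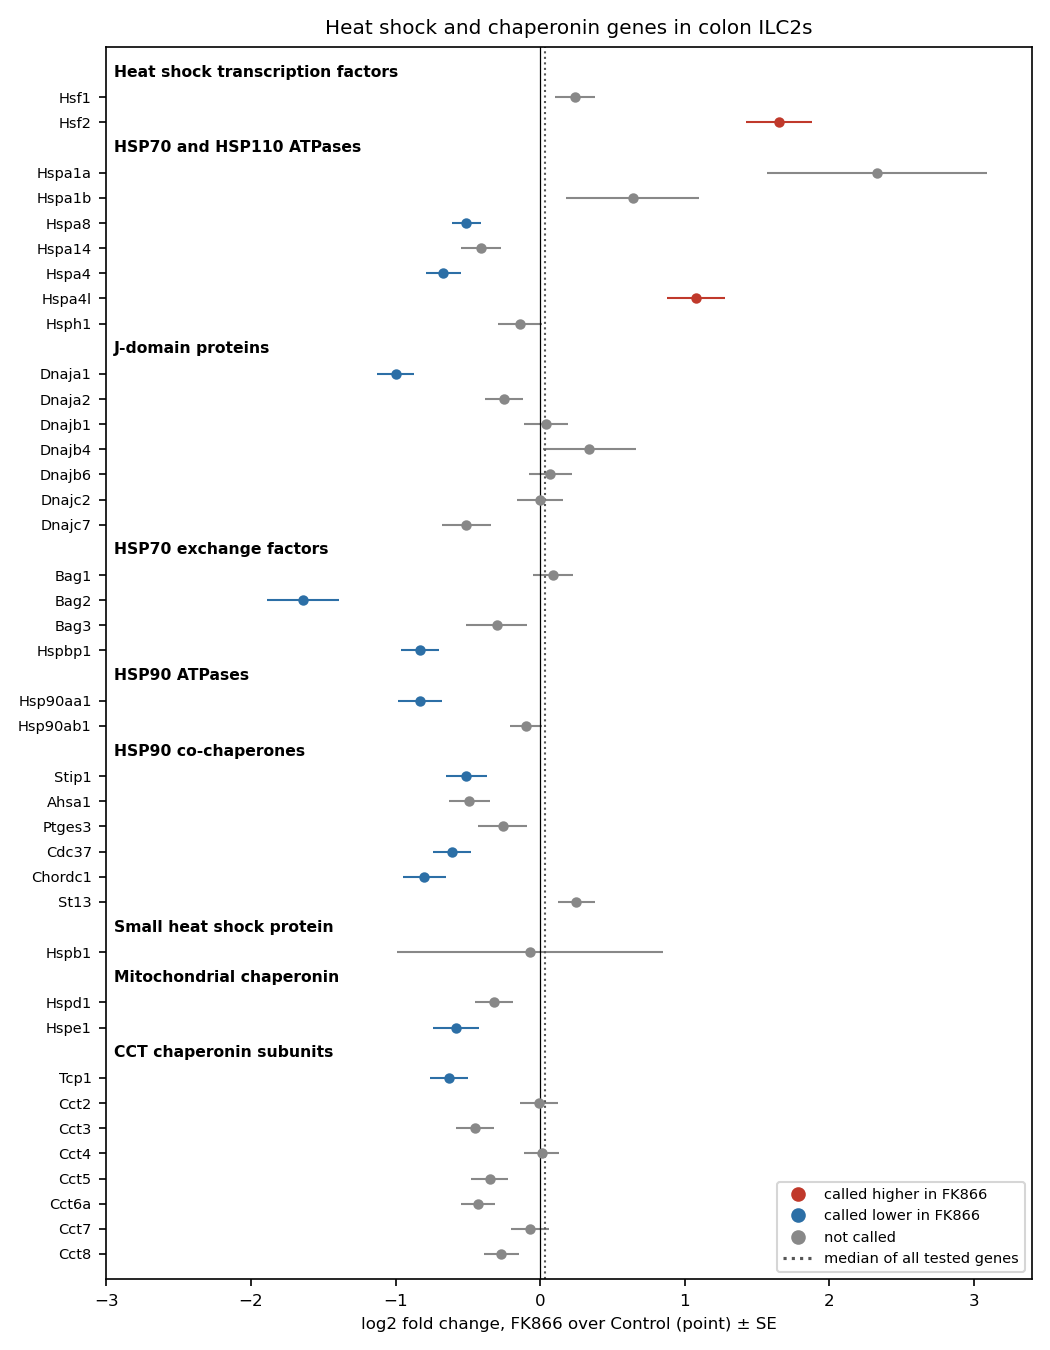
Log2 fold change of each of the 39 members, FK866 over control, with its standard error (SE), grouped by role; red points were called higher in FK866, blue points lower, and grey points did not pass. The 11 blue points are spread over the HSP70, J-domain, exchange factor, HSP90, co-chaperone, mitochondrial and CCT groups, Hsf2 and Hspa4l are the 2 red ones, and the dotted line at 0.03 is the median of all tested genes.

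Whether the 2 libraries of a group came from separate cultures or animals is not labelled. The p-values therefore reflect library-to-library spread that may be purely technical. Of the 39 members, 33 were lower in FK866 replicate 2 than in FK866 replicate 1, against 53.0% of all tested genes, and without FK866 replicate 2 the count of falls was 5, while the 2 rises were still called. Without control replicate 1 there were 19 falls and 2 rises. With the trend of fold changes with transcript length and GC content removed, 10 members fell and 3 rose, while the split over all genes went to 1629 higher and 1414 lower, in place of 1020 higher and 1514 lower. Near-identical copies make some counts uncertain: for 6 members at least 40% of the 50-base words of their transcripts also occur in another gene, namely Hspa1a, Hspa1b, Hsp90aa1 (58.5%), Hspb1 (51.6%), Hspa8 (51.4%) and Hspd1 (44.8%), and the share was 18.7% for Dnaja1 and 0 for 15 members. In bulk RNA, fewer cells of a type and less RNA per cell cannot be told apart.

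The heat shock transcription factors were not lower. Hsf2 (mm10 chromosome 10, 57486385 to 57513135, plus strand) encodes a factor that binds the same elements as HSF1 and pairs with it. It stood at 39.1 and 41.1 CPM in FK866 libraries, against 9.99 and 15.5 CPM in control libraries. The groups were well apart, with a log2 fold change of 1.65 ± 0.23 (SE), or 3.15-fold, and an adjusted p of 0.0044 (edgeR), the larger of the 2 called rises. Hsf1, the main activator of the heat shock response, had 135.0 and 115.6 CPM in FK866 libraries, against 109.9 and 102.4 CPM in controls. These ranges did not overlap, but the difference of 0.24 ± 0.14 on the log2 scale did not pass (edgeR adjusted p = 0.312). For every 100 counts of Hsf1 there were 28.9 and 35.5 counts of Hsf2 in FK866 libraries and 9.09 and 15.1 in controls. With 2 libraries against 2, an exact two-sided permutation test cannot go below p = 0.333, the value obtained for this ratio.

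Of the 7 members of the HSP70 and HSP110 families, 2 fell and 1 rose (edgeR), and 5 had an unadjusted p under 0.05. For all tested genes, 7.89% were called lower, 5.31% higher and 28.0% had such a p. At a mean log2 CPM of 5 or more, 16.0% of all genes were called lower and 47.9% had such a p. Hspa8 (chromosome 9, 40800984 to 40810087, plus strand), the constitutive HSP70, was the most abundant member per length of transcript in every library, at 1851.3 to 2767.1 CPM per kb. It had 4705.8 and 4432.0 CPM in FK866 libraries, against 6624.5 and 6401.5 CPM in controls. Both FK866 libraries were lower, by a log2 fold change of -0.51 ± 0.10 (SE, edgeR adjusted p = 0.0136), but the difference did not pass when FK866 replicate 2 was left out (adjusted p = 0.0615) or with no filter on low counts (adjusted p = 0.211). Hspa4 (chromosome 11, 53259814 to 53300457, minus strand), an HSP110-type exchange factor for HSP70, had 483.4 and 494.4 CPM in FK866 libraries, against 749.9 and 803.7 CPM in controls, a fall of 0.67 on the log2 scale (SE 0.12, edgeR adjusted p = 0.00905).

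Its close relative Hspa4l (chromosome 3, 40744495 to 40796103, plus strand) moved the other way. It had 27.3 and 24.1 CPM in FK866 libraries, against 11.5 and 12.9 CPM in controls, a log2 fold change of 1.08 ± 0.20 (SE, edgeR adjusted p = 0.0112). Per 100 counts of Hspa4 there were 5.65 and 4.87 counts of Hspa4l in FK866 libraries and 1.54 and 1.6 in controls (exact permutation p = 0.333, the smallest possible). The third HSP110 gene, Hsph1, had 243.7 and 202.0 CPM in FK866 libraries and 266.3 and 226.1 CPM in controls. These groups overlapped (log2 -0.14, adjusted p = 0.595). Hspa14, which works with DNAJC2 on nascent chains at the ribosome, was at 108.5 and 100.6 CPM in FK866 libraries and 150.1 and 128.5 CPM in controls, without passing (adjusted p = 0.0876).

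The stress-inducible genes Hspa1a and Hspa1b, the usual readout of an active heat shock response, were at low levels in every library, at most 5.01 CPM each. Hspa1a had 49 and 61 counts in FK866 libraries, against 5 and 19 counts in control libraries, which is 1.82 and 1.79 CPM against 0.138 and 0.583 CPM. Both FK866 libraries were higher, but the log2 fold change of 2.33 ± 0.76 (SE) did not pass (edgeR adjusted p = 0.0797). It passed in 4 of 12 alternatives, namely DESeq2 (adjusted p = 0.0333), without control replicate 2 (log2 3.68, adjusted p = 0.00328) and with the replicate block, alone (2.53, adjusted p = 0.0054) or with the length and GC trend removed (2.62, adjusted p = 0.014). Without control replicate 1 it was 1.52 (adjusted p = 0.253). Hspa1b had 135 and 75 counts in FK866 libraries and 89 and 70 counts in controls, and the groups overlapped (adjusted p = 0.417). Of the 50-base words of the Hspa1a transcript, 58.8% also occur in Hspa1b, so reads may be split between the copies or dropped. With both genes summed, the level was 6.82 and 4 CPM in FK866 libraries and 2.59 and 2.73 CPM in controls (log2 1.02 ± 0.37, SE, edgeR adjusted p = 0.111). Among 13 immediate early genes, which also respond to cell handling, Atf3 (log2 2.11), Egr1 (1.98) and Nr4a1 (1.42) rose and Jund (-1.26) fell (edgeR). The other 9, among them Fos (0.35), Jun (0.22) and Dusp1 (-0.13), were not called. An unadjusted p under 0.05 was found for 6 of the 13, against 28.0% of all tested genes, of which 13.2% were called. At a mean log2 CPM of 5 or more, these shares were 47.9% and 26.9%. The part of the 13 genes in the Hspa1a values was not tested. The small heat shock gene Hspb1 was at 10 to 18 counts in all 4 libraries.

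**Figure D2:**
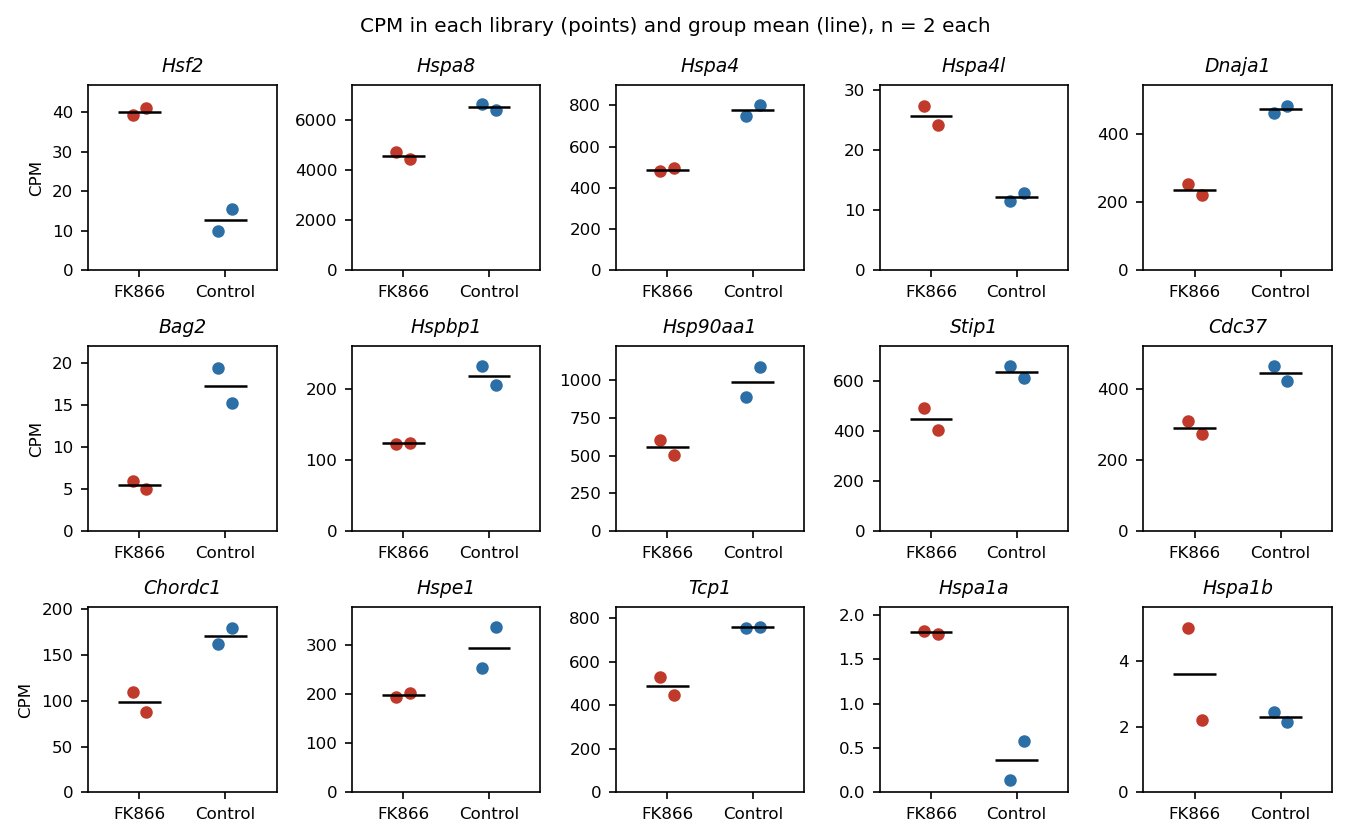
CPM in each library (points) and group mean (line) for the 13 called members and for Hspa1a and Hspa1b; each panel has its own axis from 0. The FK866 points lie above the control points for Hsf2, Hspa4l and Hspa1a and below them for the other 11 called members, and for Hspa1b FK866 replicate 2 lies between the controls.

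Of the 7 J-domain genes, 1 fell and 0 rose (edgeR). Among them 2 had an unadjusted p under 0.05, and DESeq2 also called Dnajc7 lower. For all tested genes, edgeR called 7.89% lower and 28.0% had such a p. At a mean log2 CPM of 5 or more, these shares were 16.0% and 47.9%. Dnaja1 (chromosome 4, 40722150 to 40737149, plus strand), a farnesylated co-chaperone that brings clients to HSC70, had 253.8 and 220.0 CPM in FK866 libraries, against 463.1 and 482.7 CPM in controls. Every FK866 value was well under every control value, with a log2 fold change of -1.0 ± 0.13 (SE, edgeR adjusted p = 0.00334), so that it fell by 49.9%. Its paralog Dnaja2 had 274.1 and 284.7 CPM in FK866 libraries and 315.2 and 351.6 CPM in controls and did not pass (log2 -0.25, adjusted p = 0.23). For each 100 counts of Dnaja2 there were 92.6 and 77.3 of Dnaja1 in FK866 libraries and 146.9 and 137.3 in controls (exact permutation p = 0.333). Dnajb1, the classical HSP40 and a strong HSF1 target, had 110.5 and 98.5 CPM in FK866 libraries and 111.6 and 91.9 CPM in controls, groups that overlapped almost fully. Dnajb6, a suppressor of protein aggregation, Dnajb4 and Dnajc2 also overlapped between groups, with log2 fold changes of 0.07, 0.34 and 0.00. Dnajc7, which binds both HSP70 and HSP90, was at 111.5 and 94.7 CPM in FK866 libraries and 168.1 and 126.1 CPM in controls (adjusted p = 0.0845). A 9.07% share of its exon bases lies in exons of Cnp and Nkiras2 on the other strand, and Cnp itself fell (log2 -0.94).

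Among the 4 HSP70 exchange factors, 2 fell and 0 rose (edgeR). An unadjusted p under 0.05 was found for 2 of them, against 28.0% of all tested genes, of which 7.89% were called lower. Bag2 (chromosome 1, 33745484 to 33757795, minus strand), which inhibits the ubiquitin ligase CHIP, had 6.01 and 5.06 CPM in FK866 libraries, against 19.3 and 15.2 CPM in controls. This was the steepest of the 11 called falls, with a log2 fold change of -1.64 ± 0.25 (SE, edgeR adjusted p = 0.0058). Hspbp1 (chromosome 7, 4660521 to 4685068, minus strand), which releases nucleotide from HSP70, had 123.4 and 123.5 CPM in FK866 libraries, against 231.9 and 205.6 CPM in controls (log2 -0.83 ± 0.13, SE, edgeR adjusted p = 0.0067), and the value was -0.49 with the length and GC trend removed. Bag3, the stress-induced member that steers clients to autophagy, had 14.3 and 13 CPM in FK866 libraries and 15.7 and 17.9 CPM in controls, without passing (adjusted p = 0.397). Bag1 overlapped between the groups, at 281.1 and 236.8 CPM in FK866 libraries and 233.1 and 252.7 CPM in controls.

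Of the 2 cytosolic HSP90 genes, 1 fell; the difference between them was tested only as a ratio. Hsp90aa1 (chromosome 12, 110690605 to 110702728, minus strand), the inducible isoform, had 603.4 and 504.4 CPM in FK866 libraries, against 886.0 and 1085.3 CPM in controls (log2 -0.83 ± 0.15, SE, edgeR adjusted p = 0.00938). Hsp90ab1, the constitutive isoform, had 4523.0 and 4162.0 CPM in FK866 libraries and 4864.1 and 4419.5 CPM in controls, groups that overlapped (log2 -0.10 ± 0.11, SE, adjusted p = 0.628). Per 100 counts of Hsp90ab1 there were 13.3 and 12.1 of Hsp90aa1 in FK866 libraries and 18.2 and 24.6 in controls (exact permutation p = 0.333). Of the 50-base words of the Hsp90aa1 transcript, 51.5% occur in the processed pseudogene Gm12346, which held 163 and 175 counts in FK866 libraries and 340 and 479 in controls, against 16273 and 17152 counts of Hsp90aa1 in FK866 libraries and 32191 and 35383 in controls.

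Of 6 HSP90 co-chaperones, 3 fell and 0 rose (edgeR). Among them 4 had an unadjusted p under 0.05, and DESeq2 also called Ahsa1. The 6 genes are abundant. At a mean log2 CPM of 5 or more, edgeR called 16.0% of all genes lower and 47.9% had such a p. For all tested genes these shares were 7.89% and 28.0%. Chordc1 (chromosome 9, 18292125 to 18317442, plus strand), an HSP90-binding stress sensor, had 109.0 and 87.4 CPM in FK866 libraries, against 161.5 and 179.6 CPM in controls (log2 -0.80 ± 0.15, SE, edgeR adjusted p = 0.0125). Cdc37 (chromosome 9, 21133222 to 21149982, minus strand), which loads kinases onto HSP90, had 308.9 and 274.6 CPM in FK866 libraries, against 465.3 and 422.6 CPM in controls (log2 -0.61 ± 0.13, SE, edgeR adjusted p = 0.019). Stip1 (chromosome 19, 7020702 to 7039967, minus strand), the HSP70 to HSP90 adaptor, had 489.9 and 403.1 CPM in FK866 libraries, against 660.1 and 612.2 CPM in controls (log2 -0.51 ± 0.14, SE, edgeR adjusted p = 0.0413). In all 3 genes the groups were apart, yet none of these calls held without FK866 replicate 2 (adjusted p = 0.0854, 0.148 and 0.35), and the log2 fold change of Stip1 was -0.28 with the length and GC trend removed. Ahsa1, the activator of the HSP90 ATPase, lay just over the threshold (log2 -0.49, adjusted p = 0.0511) and passed in 9 of 13 alternatives. Ptges3, or p23, overlapped between groups (log2 -0.26). St13, which stabilizes HSP70 with its client, had 355.0 and 316.8 CPM in FK866 libraries and 285.7 and 281.1 CPM in controls, the 1 co-chaperone of the set with both FK866 libraries above the controls (log2 0.25, adjusted p = 0.247).

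The mitochondrial chaperonin genes share a promoter and the 3-unit element shown above. Hspe1 (chromosome 1, 55088132 to 55091307, plus strand), the lid, had 193.5 and 202.5 CPM in FK866 libraries, against 253.1 and 337.0 CPM in controls (log2 -0.58 ± 0.16, SE, edgeR adjusted p = 0.0452). This call was lost in 7 of 13 alternatives and the value was -0.87 without control replicate 1 (adjusted p = 2.46e-07), -0.35 without control replicate 2 (adjusted p = 0.107) and -0.24 after removal of the length and GC trend. Hspd1, the barrel, had 703.4 and 609.0 CPM in FK866 libraries and 789.1 and 843.5 CPM in controls, lower in both FK866 libraries but not past the threshold (log2 -0.32, adjusted p = 0.139). The 5 genes with a 3-unit element thus gave log2 fold changes of -0.80 (Chordc1), -0.58 (Hspe1), -0.32 (Hspd1), -0.14 (Hsph1) and 0.07 (Dnajb6), of which 2 were called. Of the 11 called genes with a promoter window, 4 held a 2-unit motif, and of the 21 that were not called, 11 did.

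CCT is a ring of 8 different subunits present once each per ring, and the log2 fold changes of its genes ran between -0.63 and 0.01, without a test of the differences between subunits. Tcp1 (chromosome 17, 12915701 to 12925067, plus strand), the alpha subunit, had 531.0 and 449.1 CPM in FK866 libraries, against 753.7 and 760.0 CPM in controls (log2 -0.63 ± 0.13, SE, edgeR adjusted p = 0.0162). An unadjusted p under 0.05 was found for 5 of the 8 subunits, against 28.0% of all tested genes, of which 7.89% were called lower. The subunits are abundant. Of all genes with a mean log2 CPM of 5 or more, 47.9% had such a p and 16.0% were called lower. Tcp1 was the 1 subunit called of 8. It was not called when FK866 replicate 2 was left out (log2 -0.49, adjusted p = 0.131).

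Cct3 had 980.7 and 833.0 CPM in FK866 libraries and 1314.1 and 1163.8 CPM in controls. Cct6a had 762.2 and 666.1 CPM in FK866 libraries and 947.0 and 972.0 CPM in controls. Both were just over the threshold, with log2 fold changes of -0.45 and -0.43 and adjusted p-values of 0.055 and 0.052 (edgeR). They passed in 10 and 9 of 13 alternatives. Cct5 (log2 -0.35) and Cct8 (log2 -0.27) were also lower in both FK866 libraries than in both controls, without passing (adjusted p = 0.115 and 0.162).

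The other 3 subunits overlapped between the groups. Cct4 had 704.1 and 646.8 CPM in FK866 libraries and 668.3 and 677.4 CPM in controls. Cct2 had 491.2 and 456.7 CPM in FK866 libraries and 439.8 and 514.9 CPM in controls. Cct7 had 1341.1 and 1158.9 CPM in FK866 libraries and 1402.5 and 1223.7 CPM in controls, so that none of the 3 showed a difference beyond the spread between libraries. Per 100 counts of Cct4 there were 75.4 and 69.4 of Tcp1 in FK866 libraries and 112.8 and 112.2 in controls (exact permutation p = 0.333, the smallest possible). The 8 subunits together summed to 7042.6 and 6147.2 CPM in FK866 libraries and 8186.7 and 7827.5 CPM in controls.

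Scaled to the length of the principal annotated transcript (for Cct6a, which has none, the longest one), Cct5 was the most abundant subunit in both groups, at 593.0 ± 74.5 CPM per kb in FK866 libraries and 754.1 ± 48.5 in controls (SD, n = 2 each). In FK866 libraries it was followed by Cct7 (512.1 ± 52.8), Cct3 (458.7 ± 52.8), Cct8 (411.7 ± 29.7), Cct6a (291.0 ± 27.7), Cct4 (271.9 ± 16.3), Cct2 (242.0 ± 12.4) and Tcp1 (200.3 ± 23.7). In controls Tcp1 stood in place 6, at 309.4 ± 1.83 CPM per kb, above Cct4 at 270.9 ± 2.61 and Cct2 at 243.7 ± 27.1. Neighbours in the FK866 order differed by less than the sum of their SDs, except for Cct8 over Cct6a (gap 120.6 CPM per kb), Cct4 over Cct2 (30) and Cct2 over Tcp1 (41.6). Of the exon bases of Tcp1, 16.9% lie in exons of other genes, chiefly of Mrpl18 and Acat3 on the other strand, which cannot be told apart in libraries that do not mark the strand.

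**Figure D3:**
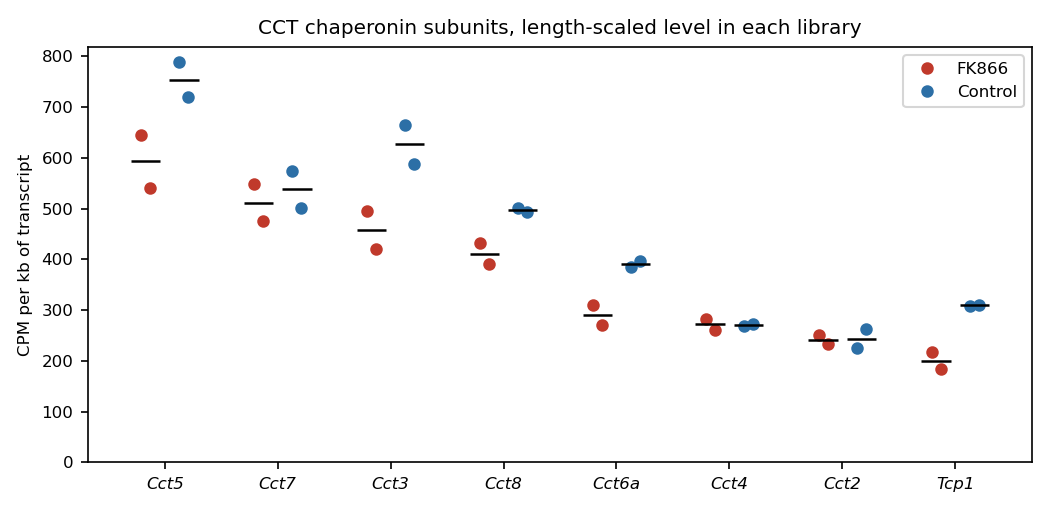
Level of each CCT subunit in CPM per kb of transcript, with 1 point per library and a line at the group mean; FK866 points are left of control points and subunits run in the FK866 order. Tcp1, Cct3, Cct5, Cct6a and Cct8 have both FK866 points below both control points, while Cct4, Cct2 and Cct7 overlap.

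Further genes were taken from lists of known function in protein folding, chosen with earlier results of these data known. Of all tested genes edgeR called 7.89% lower and 5.31% higher. Of those with a mean log2 CPM of 5 or more, 16.0% were called lower and 26.9% in either direction. Actin and tubulin are the main clients of CCT, and of 16 genes for these and for the tubulin cofactors, 7 fell and 0 rose (edgeR), with a median log2 fold change of -0.62. Of the 16, 11 had an unadjusted p under 0.05, against 28.0% of all tested genes. Most of the 16 are abundant, and of all genes with a mean log2 CPM of 5 or more 47.9% had such a p. DESeq2 called 9 lower and 0 higher, against 9.91% and 7.76% of all tested genes. Tubb4b had 334.7 and 278.2 CPM in FK866 libraries, against 809.8 and 798.5 CPM in controls (log2 -1.39, adjusted p = 0.00115). Tuba4a had 168.5 and 157.3 CPM in FK866 libraries, against 397.0 and 420.8 CPM in controls (log2 -1.33, adjusted p = 0.0011). Tbcc, a cofactor that joins α- and β-tubulin after CCT, had 20.1 and 19.5 CPM in FK866 libraries, against 58.4 and 50.8 CPM in controls (log2 -1.47, adjusted p = 0.00209). Tuba1b, the fourth by adjusted p, had 295.1 and 283.6 CPM in FK866 libraries, against 593.9 and 575.3 CPM in controls (log2 -1.01). In these 4 genes both FK866 libraries lay far below both controls. Tubulin genes are close in sequence, so their reads may be split between copies. In the alternatives that kept all 4 libraries, the number of falls lay between 6 (length and GC trend removed) and 11 (replicate block).

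Prefoldin hands actin and tubulin to CCT, and phosducin-like proteins regulate its cycle. Of 12 such genes 3 fell and 0 rose (edgeR; 5 had an unadjusted p under 0.05, and DESeq2 called 3 lower), namely the prefoldin subunit Pfdn6 (log2 -0.59), the prefoldin-like Pdrg1 (-0.71) and the phosducin-like Txndc9 (-0.67), and 0 were called without FK866 replicate 2. Of 19 further HSP90 co-chaperones and assembly factors, 2 fell, Pih1d1 (log2 -0.74) and Tomm34 (-0.50), and 1 rose, Tsc1 (0.98), with a median of -0.41; 0 fell without FK866 replicate 2 and 6 without each of the other libraries. Of 17 tested genes of other J-domain, HSP70 and exchange factors, Dnajc9, a histone co-chaperone (log2 -0.62), and Dnajc24, of diphthamide synthesis (-0.80), fell and Bag4 rose (0.69), with a median of 0.02, and 0 were called without FK866 replicate 2.

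Chaperones of the mitochondria and the endoplasmic reticulum (ER) were set beside those of the cytosol. Among 14 mitochondrial chaperones and proteases, 1 fell, the import motor subunit Dnajc19 (log2 -0.50), and 0 rose (edgeR), with a median of 0.00. Of these 14, 3 had an unadjusted p under 0.05, against 28.0% of all tested genes. Of all genes with a mean log2 CPM of 5 or more, 47.9% did. DESeq2 called 1 of the 14 lower and 1 higher. Among 14 ER chaperones, 4 rose and 1 fell (edgeR), with a median of 0.30. An unadjusted p under 0.05 was found for 7 of them, and DESeq2 called 5 higher and 1 lower. Most of these ER genes are abundant. Of all genes with a mean log2 CPM of 5 or more, 47.9% had such a p and edgeR called 26.9% in either direction. Hspa13, an HSP70-like ATPase of microsomes, had 105.3 and 99.3 CPM in FK866 libraries, against 37.2 and 35 CPM in controls (log2 1.5, adjusted p = 0.0011). Pdia4 (log2 0.57) and Sil1 (0.58) were among the other 3 rises, and Sdf2l1 fell (-0.81). Without FK866 replicate 1 the number of ER rises was 1. Of 9 tested genes among other HSF1 targets and relatives, the autophagy receptor Sqstm1 (log2 1.12) and the heme oxygenase Hmox1 (1.64) rose and 0 fell (edgeR; 2 had an unadjusted p under 0.05), with a median of 0.09. DESeq2 called Sqstm1 but not Hmox1 (adjusted p = 0.0865), and 0 lower.

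**Figure D4:**
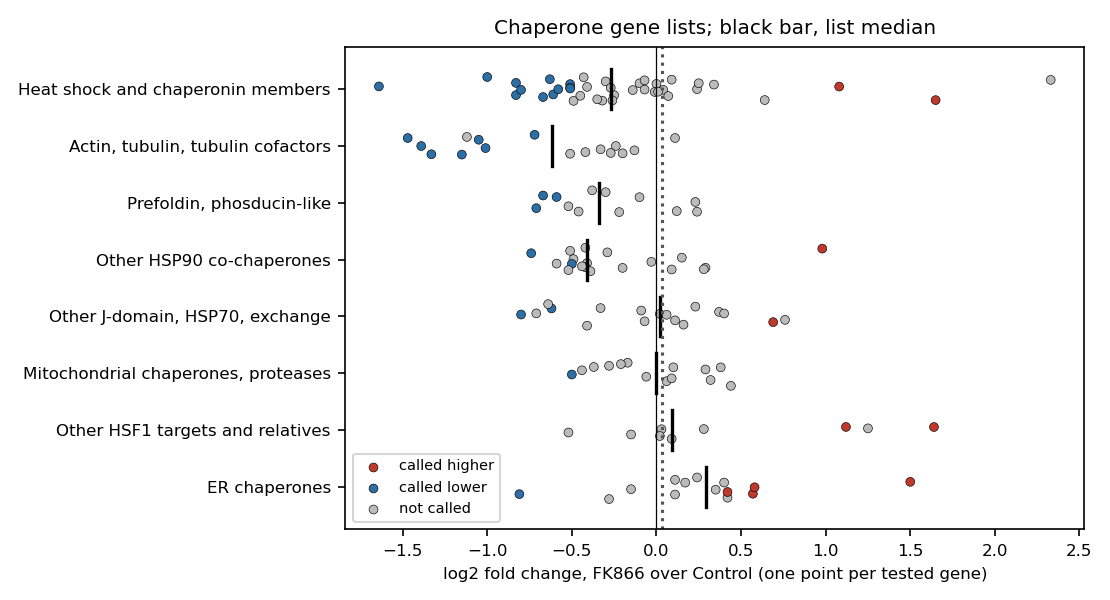
Log2 fold changes, FK866 over control, with 1 point per tested gene for the 39 members and for 7 other chaperone lists; black bars are list medians and the dotted line is the median of all tested genes. The actin and tubulin list has its median at -0.62, the members theirs at -0.27 and the ER chaperones theirs at 0.30.

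**Figure D5:**
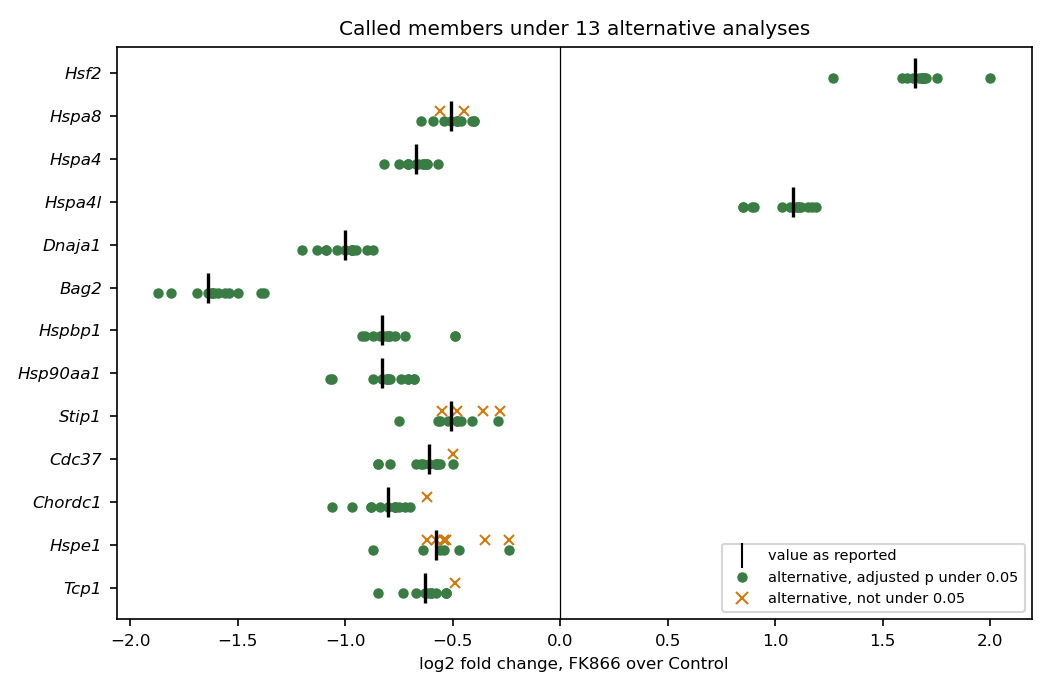
Log2 fold change of each of the 13 called members as reported (black bar) and under 13 alternative analyses, shown as green dots where the adjusted p was under 0.05 and orange crosses where it was not. Hsf2, Hspa4, Hspa4l, Dnaja1, Bag2, Hspbp1 and Hsp90aa1 have green dots throughout, and the crosses are in Hspa8, Stip1, Cdc37, Chordc1, Hspe1 and Tcp1.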

How the data were processed

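RNA was taken with TRIzol, copied with the SMART-Seq HT kit and made into paired-end Nextera XT libraries, per the labels' protocols; this chemistry does not mark the strand. Whole-number read counts per Ensembl gene were deposited by the authors for the 4 libraries. The submitters' processing notes list HISAT2 2.2.1, cutadapt 1.9 and the build mm10. How reads were counted, over which annotation and with what handling of multiple matches was not given in the sources used here.

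Symbols and positions came from GENCODE M21 (mm10), with a symbol for 55141 of 55487 IDs; the other 346 stayed in the test. Counts were tested with edgeR 4.0.16 in R 4.3.3 (TMM scaling, filterByExpr at its settings of 10 counts per library and 15 in total, quasi-likelihood F test, treatment only), with all p-values adjusted over 19194 genes. CPM uses the TMM-scaled library size, and the SE was derived from the F statistic (log2 fold change over its square root). Alternatives were other scalings, DESeq2 1.42.0, a stricter filter (50 counts in both libraries of a group) or none, leaving out each library, the replicate number as a block, and removal of the length and GC trend. The procedure was tested on simulated data. These drew independent libraries at the spread fitted to the real ones, so they cannot speak to replicates of unknown origin or to a length and GC trend. All members could be named, and from each list up to 4 called genes with the smallest adjusted p or, with none called, the 2 most abundant. The members and lists were chosen with earlier results of these data known. Fam46a was not matched, and 6 list genes were under the filter. The summed ILC3 marker list is not reported here.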

Additional observations from a re-analysis of the deposited data

How the results depend on the processing

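Leaving out 1 library moved the members called lower between 5 (without FK866 replicate 2) and 19 (without control replicate 1), against 11 as reported, the members called higher between 2 and 3, and the calls over all genes between 1727 and 3726, against 2534. The numbers 1 and 2 in the titles are not stated to mark a shared culture or day. Same-numbered libraries deviated together, with only 2 pairs. The correlation was 0.234 over all tested genes and 0.372 over those with a mean log2 CPM above 2. With the replicate block 19 members were lower and 3 higher and 5256 genes were called; with the block and the length and GC trend removed, 15 were lower, 8 were higher and 4848 genes were called, and Cct2, at -0.01 as reported, was called higher (0.23). Of the 13 called members, 7 were called in each of the 13 alternatives, and none of the 13 changed direction. Hspa8, Stip1, Cdc37, Chordc1, Hspe1 and Tcp1 were not called without FK866 replicate 2. Another 15 members were called in at least 1 alternative. The median of the members minus that of all genes was -0.30 on the log2 scale as reported and between -0.55 and -0.14 in the alternatives, where the median of all genes lay between -0.05 and 0.24; the cause was not tested. For Hspa1a, Hspa1b and Hspb1 the low counts limit the precision.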

Other observations

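Several members have a neighbour on the other strand whose exons overlap theirs. Mrpl18, a mitochondrial ribosomal protein gene beside Tcp1, had 63.1 and 61.7 CPM in FK866 libraries, against 99.1 and 115.8 CPM in controls (log2 -0.78, edgeR adjusted p = 0.0108). Psph, the last enzyme of serine synthesis and the neighbour of Cct6a, had 34.4 and 39.8 CPM in FK866 libraries, against 51.4 and 60.3 CPM in controls (log2 -0.59, edgeR adjusted p = 0.0499). Pradc1, beside Cct7, had 9.49 and 9.35 CPM in FK866 libraries, against 20 and 20.2 CPM in controls (log2 -1.09, edgeR adjusted p = 0.0118), while Cct7 itself overlapped between the groups. Usp16, beside Cct8, and Smu1, beside Dnaja1, had log2 fold changes of 0.22 and 0.03 and did not pass. These neighbours were looked at after their overlap with the members had been computed and fall outside the rule for named genes. Whether shared reads move with these values was not tested.

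The annotated predicted gene Gm45902, which shares exon bases with Hspa14 on the same strand, rose (10.5 and 8.32 CPM in FK866 libraries, against 3.47 and 3.07 CPM in controls, log2 1.52, edgeR adjusted p = 0.0125), while Hspa14 was lower in both FK866 libraries than in both controls without passing.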
